A study of Mus musculus with 79 samples.

Results

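Nuclei of interneurons that express vasoactive intestinal peptide (VIP) were compared between those that took up a viral vector for the potassium channel Kir2.1 and those of the same kind in injected visual cortex that did not. The comparison rested on 20 of the series' 79 RNA-sequencing libraries, chosen by their titles: 10 of Kir2.1-transduced VIP nuclei and 10 of non-transduced VIP nuclei. Every mouse was labelled INTACT wt/ki crossed with VIP Cre wt/ki, with Cre recombinase in VIP neurons and a nuclear tag in Cre-expressing cells, and every library as 10 days dark housed. The general protocol names harvest in the dark or after 1 hour of light and does not say which libraries, if any, had light, so the dark label of each library was followed here. Mice were injected at postnatal days 55 to 60 and moved to the dark 3 days later, and each library was made from 50 to 100 nuclei sorted by flow cytometry from frozen cortex. The Kir2.1 vector was AAV-Syn1-Kir2.1-2a-mScarlet-KASH: an adeno-associated virus in which the neuronal Syn1 promoter drives the channel and a red fluorescent protein anchored in the nuclear envelope. Used alongside were 9 libraries of transduced and 9 of non-transduced VIP nuclei with the same vector holding Kir2.1(Mutant) in place of Kir2.1. VIP nuclei from mice without AAV gave 3 more, all labelled male, whereas every other group held libraries of both labelled sexes.

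The Syn1 promoter is not restricted to VIP cells, so transduced neurons of other classes lay in the same tissue, and the non-transduced nuclei came from injected cortex. Titles number the libraries of each group as biological replicates, but the labels do not say which animal a number stands for, and the p-values below measure the spread between libraries. Total counts ran from 4265542 to 8239394 in the Kir2.1-transduced and from 3219899 to 7517759 in the non-transduced libraries. Counts of Xist and of Y-linked genes went against the labelled sex in 4 transduced (replicates 4, 5, 6 and 8) and 3 non-transduced (4, 5 and 6) Kir2.1 libraries, and in 5 transduced and 5 non-transduced mutant libraries. These libraries were kept, and counts of changed genes are given with and without them. Transduced library 1 and non-transduced library 9 stood apart from their groups, with correlations of 0.881 and 0.866 with the group's median profile.

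Kir2.1, encoded by Kcnj2, is an inwardly rectifying potassium channel that holds the membrane near the potassium equilibrium potential, so that a neuron that overexpresses it needs more input to fire. VIP interneurons are GABAergic cells of the cortex that mainly inhibit other interneurons and so disinhibit excitatory cells, and they release peptides besides GABA. Firing and calcium entry induce immediate early genes such as Fos and Npas4, many of them transcription factors, and after these a later wave of genes for secreted factors, peptide processing and synapses.

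Kcnj2 (mm10 chr11:111066164-111076821, plus strand, ENSMUSG00000041695) was the check of the transduction labels. It stood at 266 to 925 CPM (median 593) in Kir2.1-transduced nuclei and at 1.52 to 27.9 CPM (median 14.96) in non-transduced nuclei, where CPM is the count scaled to the size of the library. Every transduced library was above every non-transduced one, by 38.5-fold on average (log2 fold change 5.27 ± 0.39 SE, adjusted p = 3.64e-14). Syne2, the gene of the KASH-domain protein nesprin-2, stood at 64.7 to 132 CPM (median 89.6) in transduced and 2.14 to 21.8 CPM (median 7.88) in non-transduced nuclei, again without overlap (log2 fold change 3.36 ± 0.37 SE, adjusted p = 3.14e-08). Both also differed with the mutant vector (log2 fold changes, Kcnj2 5.09, Syne2 3.34), and the counts do not separate vector from endogenous transcripts. In mice without AAV Kcnj2 was at 5.58, 0 and 15.3 CPM.

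**Figure D1:**
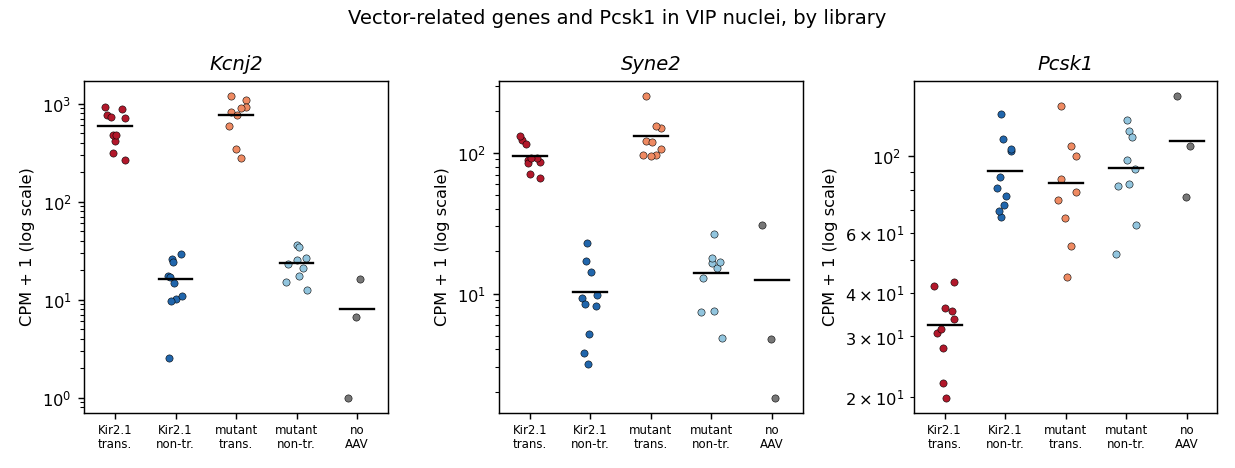
CPM + 1 on a log axis for Kcnj2, Syne2 and Pcsk1 in each of the 41 VIP libraries, by group; each point is 1 library and each bar a group mean. Kcnj2 and Syne2 are high in transduced nuclei with either vector, whereas Pcsk1 is low in Kir2.1-transduced nuclei, where it lies between 19.0 and 42.3 CPM.

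Markers of VIP identity were present in both groups, although some were lower in transduced nuclei. Vip, Adarb2, Prox1, Gad1, Gad2, Slc32a1 and Htr3a were detected in all 20 libraries, with Gad1, a GABA-synthesizing enzyme, at 218 to 532 CPM (median 386) in transduced and 259 to 609.6 CPM (median 482) in non-transduced nuclei. Prox1, a transcription factor of this lineage, was at a median of 226 against 213 CPM. Vip and Adarb2 were called lower in transduced nuclei, at medians of 1856 against 3947 CPM and 5849 against 9737 CPM (details below). The vesicular glutamate transporter Slc17a7, which defines excitatory neurons of the cortex, was at 2.45 to 18.1 CPM (median 5.03) in transduced and 0.612 to 14.3 CPM (median 3.7) in non-transduced nuclei.

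The sequences below belong to 2 genes that fell and whose products or start sites carry a readable element. Mir670hg, the host transcript of a microRNA, had the smallest p-value of all genes that fell, and the RefSeq mature products of its hairpin (GRCm38.p6, chromosome 2, minus strand) are shown with the seed, bases 2 to 8, in capitals. The counts are of the host transcript, and the microRNA itself was not measured.
miR-670-5p: aUCCCUGAguguauguggugaa
miR-670-3p: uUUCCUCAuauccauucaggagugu
The seeds differ, so the products of the hairpin belong to different seed families.

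Pcsk1, a peptide-processing protease, is shown by its RefSeq promoter window, 250 bases before to 50 after the start (GRCm38.p6, chr13:75089607-75089906, plus strand), with the full cAMP response element TGACGTCA in capitals, 78 bases before the start.
Pcsk1: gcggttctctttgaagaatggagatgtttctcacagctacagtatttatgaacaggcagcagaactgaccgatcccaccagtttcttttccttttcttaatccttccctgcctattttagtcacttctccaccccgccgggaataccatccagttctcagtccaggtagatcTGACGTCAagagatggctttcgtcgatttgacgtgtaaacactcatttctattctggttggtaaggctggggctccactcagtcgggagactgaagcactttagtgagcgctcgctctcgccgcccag
This element was present in 1.79% of 32851 RefSeq mouse windows of the same length. Of the 8 called genes of the immediate early, late activity-regulated and sterol lists, 6 had a window (Fos, Npas4, Nr4a1, Pcsk1, Pthlh and Msmo1). Searched on both strands were also the AP-1 site TGANTCA (7.81% of windows), the EGR site GCGTGGGCG (0.612%) and the sterol regulatory element TCACCCCAC (0.551%). Looser patterns were that of MEF2 (CTA, 4 bases of any kind and TAG, in 3.69%) and CC, 6 bases of any kind and GG (73.3%). The latter is wider than the CArG box, in which the 6 bases are A or T, so a match does not show a CArG box. Among the 6, the full cAMP response element was found in the Pcsk1 window only and an AP-1 site in that of Msmo1 only. The EGR, MEF2 and sterol letters were in none of the 6, and the loose CC and GG pattern, found in most windows, was in all of them. The Mir670hg window (chr2:94265054-94265353, minus strand), looked at because of the gene's fall, held an AP-1 site 105 bases before the start and a MEF2 site 38 bases after it, both in capitals.
Mir670hg: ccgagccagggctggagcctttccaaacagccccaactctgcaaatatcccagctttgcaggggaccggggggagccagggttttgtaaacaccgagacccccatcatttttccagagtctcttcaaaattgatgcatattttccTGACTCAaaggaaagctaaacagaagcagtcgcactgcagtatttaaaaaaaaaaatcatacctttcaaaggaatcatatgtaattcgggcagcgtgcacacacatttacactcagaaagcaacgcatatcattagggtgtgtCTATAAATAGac

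Of 21207 genes tested, 36 were higher and 127 lower in Kir2.1-transduced than in non-transduced VIP nuclei (0.17% and 0.599%, 0.769% together; edgeR, adjusted p under 0.05). Of these, 25 and 83 (0.118% and 0.391% of genes tested) differed by at least 2-fold, and 1973 genes (9.3%) had an unadjusted p under 0.05. The shares of 0.17% higher and 0.599% lower, and a median log2 fold change of 0.01, are the background for the gene lists below. Those lists were written with earlier results of these data known, so a share above the background is no independent test. The genes that fell with the smallest p-values included peptide and peptide-processing genes, GABAergic lineage transcripts, a phosphodiesterase, a growth factor receptor and an immediate early gene. Those that rose included the CaM kinase subunit Camk2a, the potassium channel Kcnc1 and enzymes of sterol synthesis. Groups did not overlap for 8 genes that were higher and 18 that were lower (0.0377% and 0.0849% of genes tested). Low counts were part of the list: 33 of the 163 genes called had 3 counts or fewer over 1 of the groups, and 127 (28 higher, 99 lower) had a mean of 5 CPM or more in at least 1 group. Without the 17 libraries whose counts went against their sex label, 10 genes were higher and 66 lower, 64 of these 76 among the 163. Without transduced and non-transduced library 8, which carried different sex labels, 21 were higher and 82 lower, and a fit of the 20 libraries alone called 33 and 72.

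**Figure D2:**
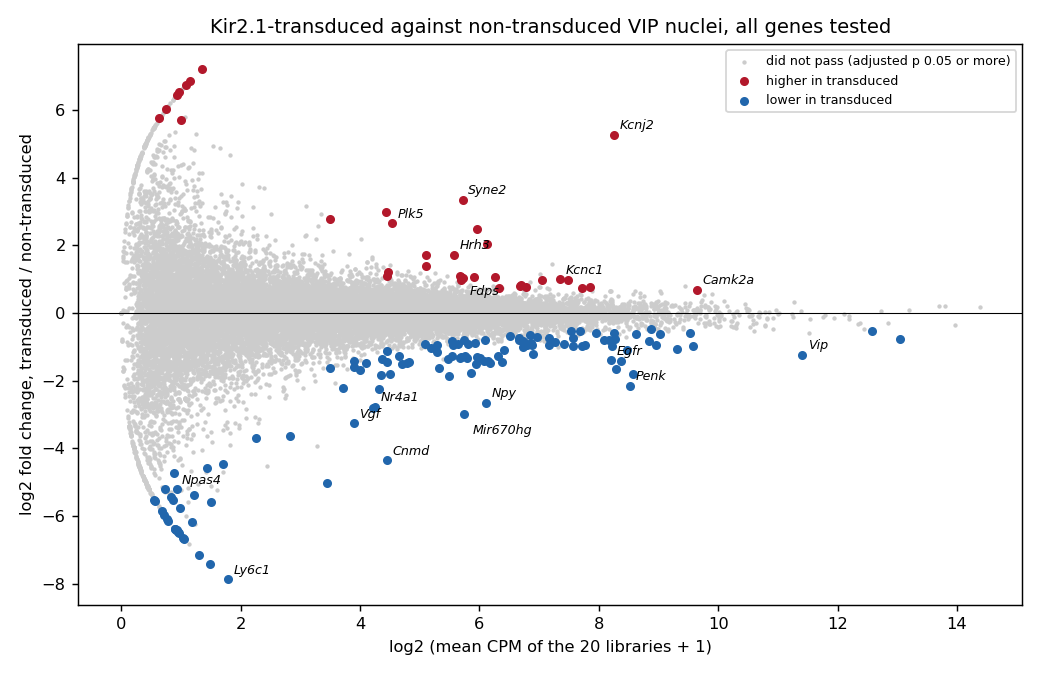
Each of the 21207 genes tested, by the log2 of its mean CPM over the 20 libraries plus 1 (x axis) and its log2 fold change, Kir2.1 transduced over non-transduced (y axis). Red points (36) were called higher and blue points (127) lower in transduced nuclei; the curved edges at the left are genes with counts in 1 group only.

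Mir670hg (chr2:94160636-94264918, minus strand, ENSMUSG00000075020), a long noncoding RNA, stood at 4.5 to 21.8 CPM (median 12.2) in Kir2.1-transduced and 69.8 to 146 CPM (median 87.3) in non-transduced nuclei. No transduced library reached the lowest non-transduced one, and the fall was 7.94-fold (log2 fold change -2.99 ± 0.24 SE, adjusted p = 3.72e-13). The libraries without AAV had 61.0, 46.3 and 61.8 CPM.

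Several precursor peptides of VIP cells were lower in transduced nuclei. Of 25 genes in a list of peptides and growth factors, 7 fell, 0 rose and 18 did not pass, with a median log2 fold change of -0.66, against 0.01 over all genes tested. Penk (chr4:4133531-4138819, minus strand, ENSMUSG00000045573), the precursor of enkephalins, was at 53.1 to 236 CPM (median 118) in transduced and 368 to 888 CPM (median 534) in non-transduced nuclei, without overlap (4.45-fold lower, log2 fold change -2.15 ± 0.30 SE, adjusted p = 4.97e-06). Npy (chr6:49822710-49829507, plus strand, ENSMUSG00000029819), the precursor of neuropeptide Y, was at 4.09 to 37.1 CPM (median 15.5) and 36.5 to 284 CPM (median 78.8) in the same order. The Npy ranges touched at 1 library each, transduced 7 at 37.1 and non-transduced 3 at 36.5 CPM (6.28-fold lower, log2 fold change -2.65 ± 0.40 SE, adjusted p = 1.79e-05). Vip itself (chr10:5639218-5647617, plus strand, ENSMUSG00000019772), which defines the cells, stood at 679 to 2759 CPM (median 1856) in transduced and 1688 to 5049 CPM (median 3947) in non-transduced nuclei. It fell 2.35-fold (log2 fold change -1.23 ± 0.28 SE, adjusted p = 0.0154), and non-transduced library 9, at 1688 CPM, was the one that lay within the transduced range. Cnmd (chr14:79637690-79662170, minus strand, ENSMUSG00000022025), the gene of chondromodulin, a glycoprotein known from cartilage, averaged 1.9 ± 2.75 CPM in transduced and 39.9 ± 8.47 in non-transduced nuclei (SD, n = 10 each). Its groups did not overlap, and 2 transduced libraries had 0 counts (20.4-fold lower, log2 fold change -4.35 ± 0.51 SE, adjusted p = 1.36e-07; 30.8-fold without transduced library 2, at 7.65 CPM).

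Processing and packaging of peptides was also represented. Pcsk1 (chr13:75089826-75134861, plus strand, ENSMUSG00000021587), the prohormone convertase whose promoter is shown above, was at 19.0 to 42.3 CPM (median 31.6) in transduced and 65.7 to 132 CPM (median 83.1) in non-transduced nuclei. All transduced libraries were below all non-transduced ones (2.87-fold lower, log2 fold change -1.52 ± 0.20 SE, adjusted p = 8.44e-07). Vgf (chr5:137026392-137033351, plus strand, ENSMUSG00000037428), which encodes a secretory granule protein and peptide precursor, was at 0 to 9.05 CPM (median 1.71) and 11.5 to 43.3 CPM (median 26.6) in the same order, also without overlap (9.55-fold lower, log2 fold change -3.26 ± 0.49 SE, adjusted p = 2.36e-05). Pthlh, parathyroid hormone-related peptide, averaged 26.7 ± 9.11 CPM in transduced and 64.2 ± 12.9 in non-transduced nuclei, also without overlap (SD, n = 10 each; -1.27, adjusted p = 0.000618). Other granule genes did not pass: Pcsk2, a related convertase, had a log2 fold change of -0.27 (adjusted p = 0.449), Cpe, a carboxypeptidase, 0.22 (0.826), Scg2 0.35 (0.823) and Pam, the amidating enzyme, -0.52 (0.0695). Crh, corticotropin-releasing hormone (-1.34 ± 0.41, adjusted p = 0.105), Igf1, insulin-like growth factor 1 (-0.43 ± 0.13, 0.0988), and Bdnf, a neurotrophin at 1.08 ± 1.45 against 0.903 ± 1.43 CPM (0.24 ± 1.20, 0.992), did not pass either. Crh passed without transduced library 3 (adjusted p = 0.0456), and Igf1 without transduced library 6 (0.0297), without the libraries that stood apart (0.0467) and in DESeq2 (0.0273). Pnoc, the nociceptin precursor, picked after its values were seen, fell as well (-1.32, adjusted p = 0.0122).

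**Figure D3:**
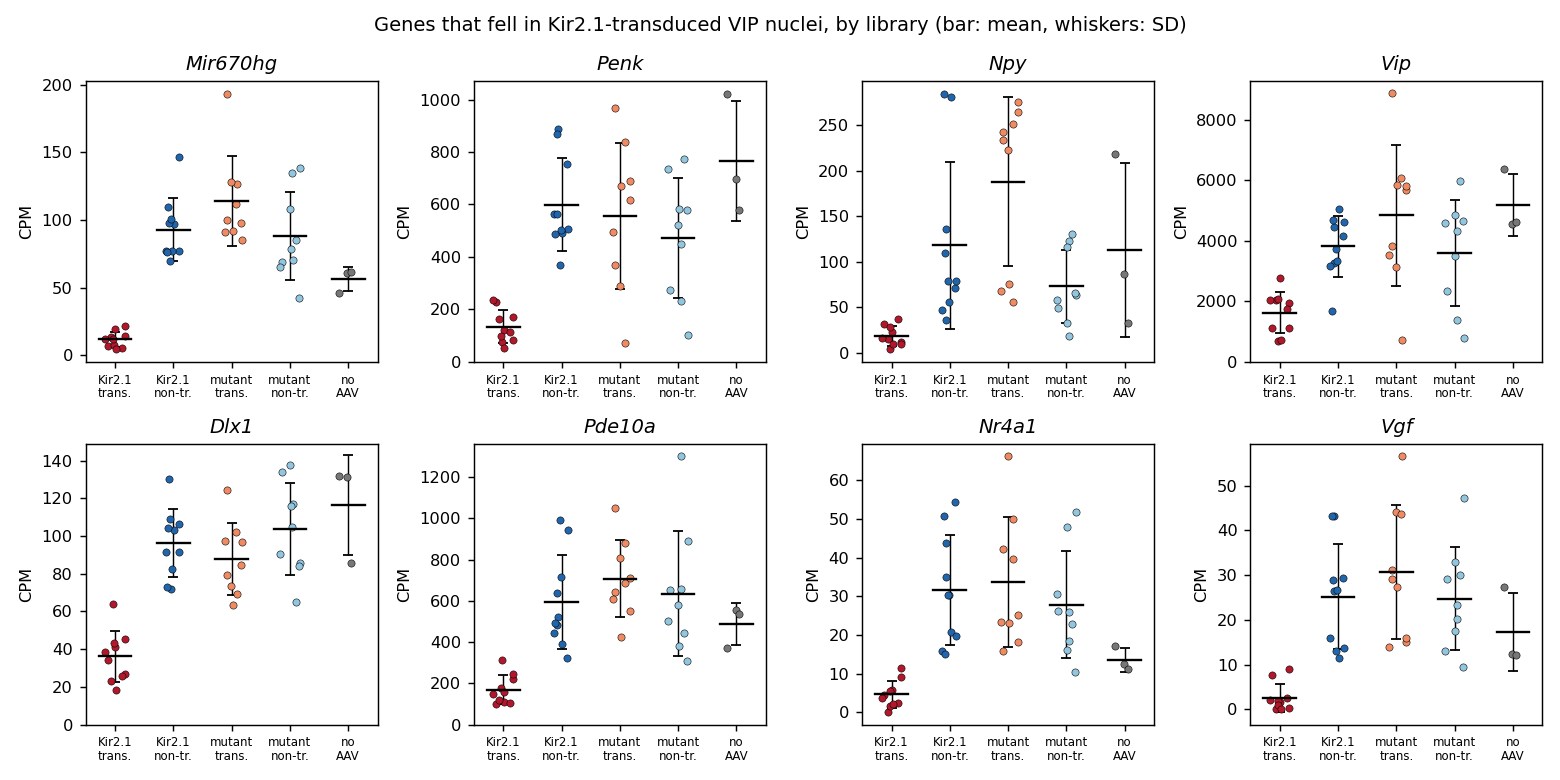
CPM on linear axes for 8 genes that fell in Kir2.1-transduced VIP nuclei, in each of the 41 VIP libraries; points are libraries, bars group means and whiskers 1 SD. Transduced Kir2.1 libraries (left in each panel) lie low, with Mir670hg at 4.5 to 21.8 CPM and Penk at 53.1 to 236 CPM.

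Among 21 immediate early genes tested (26 in the list), 3 fell (14.3%, against 0.599% of all genes), 0 rose and 18 did not pass. Of the 21, 16 had a log2 fold change below 0 and the median was -0.92, against 0.01 over all genes. Nr4a1 (chr15:101254269-101274795, plus strand, ENSMUSG00000023034), an orphan nuclear receptor induced by activity, was at 0.122 to 11.5 CPM (median 4.09) in transduced and 15.02 to 54.3 CPM (median 30.4) in non-transduced nuclei. These ranges did not overlap (6.81-fold lower, log2 fold change -2.77 ± 0.39 SE, adjusted p = 6.69e-06). Fos (chr12:85473890-85477273, plus strand, ENSMUSG00000021250), a subunit of the AP-1 transcription factor, had 0 counts in 6 of 10 transduced and 1 of 10 non-transduced libraries and reached 6.55 CPM in transduced library 3, against 29.4 in non-transduced library 3. Its groups overlapped, and it fell 12.4-fold (log2 fold change -3.63 ± 0.87 SE, adjusted p = 0.026), 41.6-fold without transduced library 3 (adjusted p = 0.000331). The call on Fos was lost without non-transduced library 3 (log2 fold change -3.36, adjusted p = 0.052), in the fit of the 20 libraries alone (adjusted p = 0.136) and without the libraries that went against their sex label (adjusted p = 0.527). Npas4 (chr19:4984355-4990316, minus strand, ENSMUSG00000045903), a transcription factor induced by calcium entry, had 2 counts summed over transduced libraries, both in library 2, and 111 in the non-transduced ones. The depth-adjusted ratio was 62.3-fold lower in transduced nuclei, with an exact 95% counting interval of 16.9 to 521 (edgeR adjusted p = 0.014; 0.35 without the libraries that went against their sex label). Levels of this gene were low in all groups, at most 5.08 CPM in a non-transduced library.

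Members of the list that did not pass included Dusp6, a phosphatase of ERK (-2.08, adjusted p = 0.0732), Arc, a cytoskeletal regulator of synapses (-1.47 ± 1.05, 0.795; 2.83 ± 2.91 against 7.89 ± 7.75 CPM), Junb (-0.92, 0.676) and Egr1 (-0.91, 0.704). Late activity-regulated genes had 3 of 28 lower, the Vgf, Pcsk1 and Pthlh given above, 0 higher and a median of -0.26. Homer1, a synaptic scaffold, had -0.36 (adjusted p = 0.757).

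Nuclei from mice without AAV, also labelled as dark housed, were also set beside these genes. These nuclei are called naive here. All 3 naive libraries were labelled male and the Kir2.1 groups held both sexes, so sex was not balanced in comparisons with naive nuclei. Fos had 0 counts in all 3 naive libraries, and Npas4 had 1 count over the 3. Nr4a1 was at 12.6, 17.1 and 11.2 CPM, near the top of the transduced range and the bottom of the non-transduced one. In the same fit Nr4a1 did not pass between transduced and naive nuclei (-1.55, adjusted p = 0.281) or between non-transduced and naive nuclei (1.21, adjusted p = 0.672). For Penk and Pcsk1 the naive libraries lay above the transduced range: Penk was at 696, 1022 and 581 CPM and Pcsk1 at 75.1, 149 and 106. Against naive nuclei, transduced nuclei were lower in Penk (-2.51, adjusted p = 8.47e-05), Pcsk1 (-1.81, 2.55e-05), Vip (-1.67, 0.0268), Npy (-2.59, 0.00358), Vgf (-2.71, 0.0266) and Cnmd (-4.76, 1.69e-06). Other genes called against non-transduced nuclei did not pass against naive ones. Among them were Thrb (-0.72, edgeR adjusted p = 0.134), Hdac9 (-0.75, 0.366), Camk2a (0.53, 0.272) and Fbln2 (1.00, 0.0873). Both comparisons use the same transduced libraries. Over all genes, 15 were higher and 32 lower in transduced than in naive nuclei (0.0707% and 0.151%), and 2 were higher and 0 lower in non-transduced than in naive nuclei (0.00943% and 0%; 1488 genes, 7.02%, at an unadjusted p under 0.05), with 3 naive libraries.

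Transcripts of the GABAergic lineage fell in part. The list of pan-GABAergic genes had 13 entries tested, 2 lower and 11 that did not pass. Dlx1 (chr2:71528113-71533981, plus strand, ENSMUSG00000041911), a homeobox transcription factor of forebrain interneurons, was at 18.4 to 64.2 CPM (median 36.3) in transduced and 72.0 to 130.4 CPM (median 97.4) in non-transduced nuclei, without overlap (2.67-fold lower, log2 fold change -1.41 ± 0.18 SE, adjusted p = 8.44e-07). Dlx6os1 (chr6:6820189-6871592, minus strand, ENSMUSG00000090063), the long noncoding RNA also known as Evf2, was at 112 to 222 CPM (median 137) and 309 to 1080.2 CPM (median 394) in the same order, again apart (3.12-fold lower, log2 fold change -1.64 ± 0.20 SE, adjusted p = 1.36e-07). Another, less abundant entry of Dlx6os1 was among those that did not pass. The antisense transcript Dlx1as, singled out after its values were seen, moved with its partner (log2 fold change -0.98 ± 0.14 SE, adjusted p = 1.01e-05), and since the library kit does not mark strand, the reads of Dlx1 and Dlx1as cannot be told apart where they overlap. Dlx6os1 is annotated as antisense too, so the same holds for its reads where a gene on the other strand overlaps it. Core GABA genes did not pass: Gad1 had -0.29 (adjusted p = 0.659), Gad2 -0.45 (0.0892) and Slc32a1, the vesicular GABA transporter, -0.19 (0.945).

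Among 18 VIP neuron markers 3 fell (Penk, Vip and Adarb2), 0 rose and the median was -0.04. Adarb2, an RNA-editing family member and one of the most abundant transcripts here, averaged 6224 ± 1969 CPM in transduced and 10693 ± 3051 in non-transduced nuclei (SD, n = 10 each; log2 fold change -0.78 ± 0.16 SE, adjusted p = 0.00434), with overlapping ranges. Calb2, calretinin (-0.01, adjusted p = 0.999), Htr3a, a serotonin-gated channel (0.65, 0.288), Prox1 (0.18, 0.819) and Tac2, the neurokinin B precursor (0.81, 0.229), did not pass. Of 23 markers of VIP subtypes 2 fell, Car4, a carbonic anhydrase (log2 fold change -1.33 ± 0.30 SE, adjusted p = 0.0163), and Gpc3, a glypican (log2 fold change -1.49 ± 0.37 SE, adjusted p = 0.0387), and 21 did not pass, with a median of -0.000957. Car4 was not called without the libraries that went against their sex label (adjusted p = 0.121), and Gpc3 was lost when any 1 of 11 libraries was left out (adjusted p up to 0.0879). In sorted pools of nuclei, fewer nuclei of a subtype and less RNA per nucleus cannot be told apart.

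Of 15 markers of other interneuron classes 2 fell, Npy and the potassium channel Kcnc2; Sst, somatostatin (-0.83, adjusted p = 0.644), Pvalb, parvalbumin (0.20, 0.99), and Nos1, neuronal nitric oxide synthase (0.49 ± 0.42, 0.856), did not pass. The summed level of these 15 was 521 to 865 CPM in transduced and 773 to 1306 CPM in non-transduced nuclei. Kcnc2 alone, at 303 to 566 CPM in transduced and 520 to 791 CPM in non-transduced nuclei, made up a large part of this sum.

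Of 36 genes of cyclic nucleotide and calcium signalling 2 fell, Pde10a and Hdac9, 1 rose, Camk2a, and 33 did not pass, with a median log2 fold change of -0.01. Of 21 tested genes of growth factor signalling 1 fell, Egfr, 3 rose and 17 did not pass, with a median of 0.01. Pde10a (chr17:8525372-8986648, plus strand, ENSMUSG00000023868), a phosphodiesterase that degrades cAMP and cGMP, was at 100.3 to 311 CPM (median 152) in transduced and 321 to 992 CPM (median 506) in non-transduced nuclei, without overlap (3.5-fold lower, log2 fold change -1.81 ± 0.23 SE, adjusted p = 4.13e-07). Egfr (chr11:16752203-16918158, plus strand, ENSMUSG00000020122), the epidermal growth factor receptor, averaged 162 ± 58.1 CPM in transduced and 426 ± 103 in non-transduced nuclei (SD, n = 10 each; 2.62-fold lower, log2 fold change -1.39 ± 0.17 SE, adjusted p = 1.36e-07). For Egfr, 3 transduced libraries (1, 2 and 6) lay within the non-transduced range, whose lowest value, 194 CPM, was that of library 3. Thrb (chr14:17660261-18038090, plus strand, ENSMUSG00000021779), a thyroid hormone receptor, was at 268 to 629 CPM (median 401) and 686 to 1192 CPM (median 763) in the same order, without overlap (log2 fold change -1.07 ± 0.14 SE, adjusted p = 1.67e-06). Hdac9, a class IIa histone deacetylase (log2 fold change -1.11 ± 0.19 SE, adjusted p = 0.000283), and Mlip (chr9:77102081-77352969, minus strand, ENSMUSG00000032355), named for its interaction with lamin A (37.4 ± 19.1 against 105 ± 29.0 CPM; log2 fold change -1.49 ± 0.20 SE, adjusted p = 3.54e-06), also fell. Mlip was the called gene among 17 of the nuclear envelope and lamin list, Syne2 being counted with the vector genes. Fam184b fell 2.74-fold (log2 fold change -1.45 ± 0.20 SE, adjusted p = 5.06e-06). Singled out after their values were seen, the receptor phosphatase Ptprz1 (log2 fold change -0.94 ± 0.13 SE, adjusted p = 6.69e-06), the orexin receptor Hcrtr2 (log2 fold change -1.26 ± 0.22 SE, adjusted p = 0.000347), the cation channel Trpc6 (log2 fold change -1.29 ± 0.21 SE, adjusted p = 0.000112) and the small GTPase Hras (0.531 ± 0.601 against 7.04 ± 4.5 CPM; log2 fold change -3.69 ± 0.95 SE, adjusted p = 0.0443) were lower too; the call on Hras was lost when any 1 of 14 libraries was left out and without the libraries that went against their sex label (adjusted p = 0.192).

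Camk2a (chr18:60925618-60988152, plus strand, ENSMUSG00000024617), the alpha subunit of CaM kinase II, was higher in every transduced library than in any non-transduced one. It stood at 784 to 1286 CPM (median 925) in transduced and 472 to 739 CPM (median 607) in non-transduced nuclei (1.61-fold higher, log2 fold change 0.69 ± 0.11 SE, adjusted p = 0.000107). This gene was also the one member of 18 excitatory neuron markers to pass, and Slc17a7 (0.43, adjusted p = 0.943) and Neurod6 (-0.10, 0.997) did not. Without Camk2a the other 17 markers summed to 106 to 322 CPM in transduced (median 216) and 139.7 to 353 CPM in non-transduced nuclei (median 228), and these ranges overlapped.

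Kcnc1 (chr7:46396497-46438704, plus strand, ENSMUSG00000058975), the Kv3.1 channel of fast-firing neurons, rose 2-fold (log2 fold change 1.00 ± 0.18 SE, adjusted p = 0.000422). It was at 173 to 288 CPM (median 199) in transduced and 74.3 to 129 CPM (median 113) in non-transduced nuclei, with all transduced libraries above all non-transduced ones. Among 40 potassium channel genes other than Kcnj2 this was the 1 rise, and 2 fell, Kcnn2, a calcium-activated SK channel (log2 fold change -0.62 ± 0.13 SE, adjusted p = 0.00445), and Kcnc2, the related Kv3.2 channel (log2 fold change -0.62 ± 0.14 SE, adjusted p = 0.0198). The call on Kcnc2 was lost without library 8 of both groups (adjusted p = 0.0539) and without the libraries that stood apart (0.0554), and that on Kcnn2 without the libraries that went against their sex label (0.073). Among 33 genes of sodium, calcium and HCN channels 1 fell, Fgf13, which binds sodium channels (log2 fold change -0.81 ± 0.20 SE, adjusted p = 0.0282), and among 21 genes of GABA receptors and inhibitory synapses the receptor subunit Gabrb2 fell (log2 fold change -0.59 ± 0.15 SE, adjusted p = 0.0437). The call on Fgf13 was lost without any 1 of transduced libraries 3, 5 and 10 or non-transduced libraries 6 and 8 (adjusted p up to 0.0741), and that on Gabrb2 without any 1 of 15 libraries (up to 0.0859). None of 26 glutamate receptor genes passed (median -0.09).

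Genes of sterol synthesis and uptake were mostly above 0: 25 of 26 had a positive log2 fold change, and the median was 0.55, against 0.01 over all genes. Called higher were 2 (7.69%, against 0.17% of all genes). Fdps (chr3:89093588-89101959, minus strand, ENSMUSG00000059743), the farnesyl diphosphate synthase gene, was at 32.5 to 100.0 CPM (median 69.5) in transduced and 20.4 to 50.6 CPM (median 25.6) in non-transduced nuclei, overlapping through transduced library 6 at 32.5 CPM (2.16-fold higher, log2 fold change 1.11 ± 0.25 SE, adjusted p = 0.0135). Msmo1 (chr8:64718139-64733792, minus strand, ENSMUSG00000031604), a methylsterol oxidase, averaged 175 ± 55.1 and 89.0 ± 24.0 CPM in the same order (SD, n = 10 each; log2 fold change 0.98 ± 0.24 SE, adjusted p = 0.0285). Neither was called without the libraries that went against their sex label (adjusted p = 0.101 for Fdps and 0.171 for Msmo1), and Msmo1 was also lost when any 1 of 9 libraries was left out (up to 0.0703). In the fit without the libraries against their sex label, the log2 fold changes were 1.20 for Fdps and 0.96 for Msmo1. Dhcr7, the last step to cholesterol (1.182, adjusted p = 0.0742) and Sqle, squalene epoxidase (0.78, 0.157), did not pass. Scd2, a fatty acid desaturase singled out after its values were seen, was higher (log2 fold change 0.81 ± 0.19 SE, adjusted p = 0.0161) and was not called without the libraries that went against their sex label (adjusted p = 0.252) or without library 8 of both groups (0.0581).

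Further rises met the naming rule. BC030499 (104 ± 52.4 against 18.3 ± 8.64 CPM; log2 fold change 2.499 ± 0.46 SE, adjusted p = 0.000716) and Gm3948 (36.5 ± 17.2 against 4.57 ± 3.26 CPM; log2 fold change 2.98 ± 0.52 SE, adjusted p = 0.000339) overlap on opposite strands of chromosome 11, so their reads cannot be told apart. The same holds for Hrh3, the histamine H3 receptor (log2 fold change 1.73 ± 0.35 SE, adjusted p = 0.00279), and Gm17180 (log2 fold change 1.70 ± 0.38 SE, adjusted p = 0.011) on chromosome 2. Plk5, of the polo-like kinase family (38.5 ± 19.3 against 6.11 ± 5.61 CPM; log2 fold change 2.65 ± 0.50 SE, adjusted p = 0.00102), Stac2, an adaptor of calcium channels (log2 fold change 1.06 ± 0.22 SE, adjusted p = 0.00492), and the 3 that rose in the growth factor signalling list, Socs2 (log2 fold change 0.76 ± 0.14 SE, adjusted p = 0.00116), Igfbp5 (log2 fold change 1.06 ± 0.23 SE, adjusted p = 0.00961) and Pik3ip1 (log2 fold change 1.07 ± 0.26 SE, adjusted p = 0.0243), were higher. Pik3ip1 was lost when any 1 of 7 libraries was left out (adjusted p up to 0.0673) and without the libraries that went against their sex label (0.271), and Socs2, Igfbp5, Stac2, Hrh3 and Gm17180 were not called without the libraries that went against their sex label (adjusted p from 0.0611 for Socs2 to 0.201 for Gm17180). Their log2 fold changes in that fit were 0.99 for Pik3ip1, 0.75 for Socs2, 1.09 for Igfbp5, 1.10 for Stac2, 1.72 for Hrh3 and 1.70 for Gm17180. Fbln2, the matrix protein fibulin-2 (172 to 342 CPM (median 239) in transduced and 71.7 to 161 CPM (median 117) in non-transduced nuclei; log2 fold change 0.99 ± 0.16 SE, adjusted p = 0.000109), and Per3, a clock gene (log2 fold change 0.82 ± 0.16 SE, adjusted p = 0.00208), were singled out after their values were seen. Gm17163 had 0 counts in all 10 non-transduced libraries and 129 over the transduced group, at least 38.3-fold higher against a floor of 3 counts over the non-transduced group, with 5 transduced libraries also at 0.

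H2-K1, a classical class I histocompatibility gene, was at 51.5 to 261 CPM (median 77.3) in transduced and 1.49 to 90.1 CPM (median 19.97) in non-transduced nuclei (4.08-fold higher, log2 fold change 2.03 ± 0.47 SE, adjusted p = 0.0186). Its call was lost without transduced library 2 or 10, at 261 and 258 CPM (adjusted p = 0.0558 and 0.0592), without library 8 of both groups (0.0539) and without the libraries that went against their sex label (0.155). The difference with the mutant vector was of like size (log2 fold change 2.15 ± 0.50 SE, adjusted p = 0.422) and did not pass. Of 22 interferon and innate immune genes H2-K1 alone passed (median 0.74 with Kir2.1 and 1.02 with the mutant), and reads of close class I paralogs cannot be separated with certainty. None of 13 p53 target genes and none of 27 entries of the unfolded protein response list passed.

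Markers of non-neuronal cells did not separate the groups, with 1 exception. None of 15 astrocyte, 14 oligodendrocyte, 4 oligodendrocyte precursor and 16 microglia markers passed. Microglia markers summed to 136 to 315 CPM in transduced and 153 to 263 in non-transduced nuclei, oligodendrocyte markers to 135 to 577 and 190.0 to 558, and astrocyte markers to 363 to 498 and 379 to 636. The astrocyte water channel Aqp4 had a median of 0.155 CPM in transduced and 1.96 CPM in non-transduced nuclei. Of 10 vascular markers 1 passed, Ly6c1, with 0 counts in all transduced libraries and 373 over the non-transduced group, of which library 7 held most (46.9 CPM; adjusted p = 0.0437). The call on Ly6c1 was lost when any 1 of the 10 transduced libraries was left out (adjusted p up to 0.0682), with labelled sex as a covariate (0.0893), without the libraries that stood apart (0.0603) and without those that went against their sex label (0.201). The vascular list summed to 7.79 to 24.7 CPM in transduced and 10.6 to 234 CPM in non-transduced nuclei, and in non-transduced nuclei without library 7 it summed to 10.6 to 29.4 CPM.

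**Figure D4:**
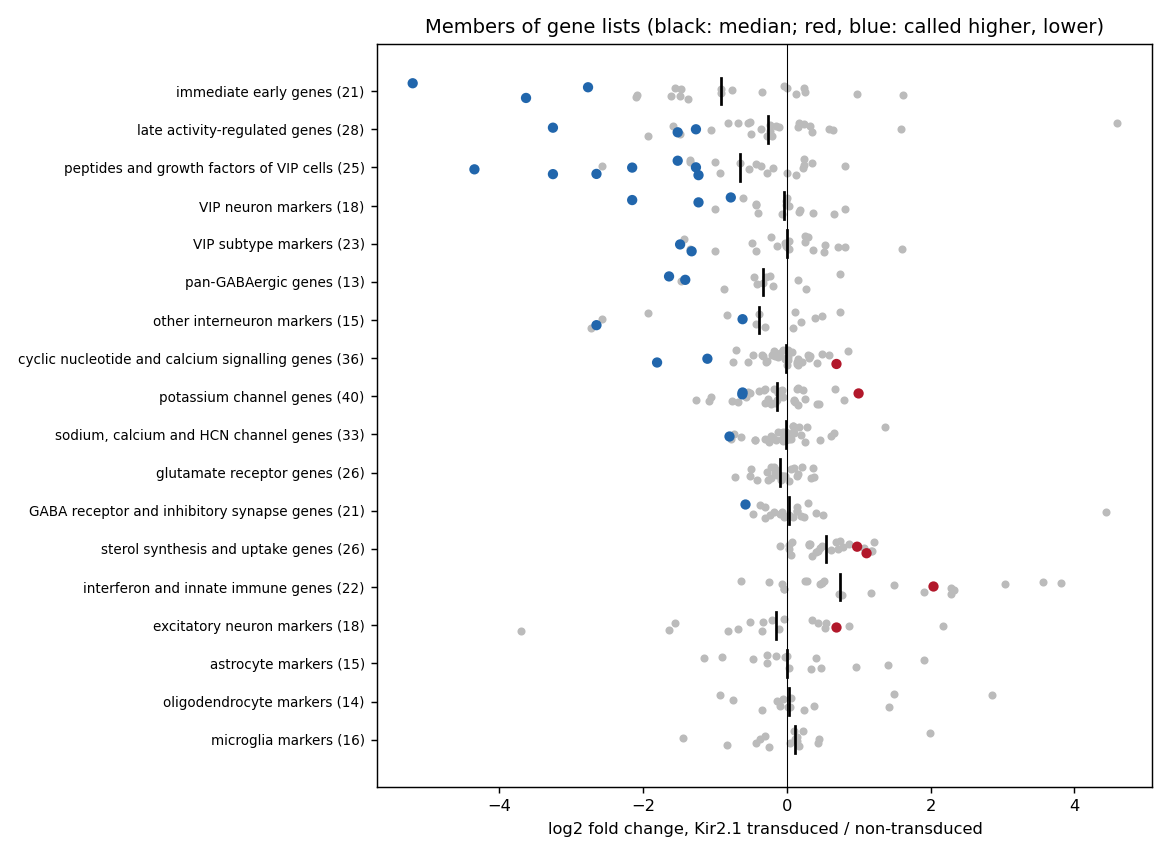
Log2 fold changes, Kir2.1 transduced over non-transduced (x axis), of the tested members of 18 gene lists (rows, number tested in brackets). Points are genes, black bars medians, and red and blue points genes called higher and lower in transduced nuclei; the immediate early list has its median at -0.92 and the sterol list at 0.55.

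The same contrast with the mutant vector, of the same make apart from the channel, was set beside these differences. Between mutant-transduced and mutant non-transduced VIP nuclei 2 genes were higher, Kcnj2 and Syne2, and 0 lower (0.00943% and 0%; 1110 genes, 5.23%, at an unadjusted p under 0.05), with 9 libraries in each group. Of the 127 genes that fell with Kir2.1, 73 had a difference of the same sign with the mutant, with a median of -0.04, against -1.36 with Kir2.1. Of the 36 that rose, 20 had the same sign, with a median of 0.07, against 1.31 with Kir2.1. Both sets were picked by their Kir2.1 differences, so a larger median with Kir2.1 than with the mutant follows in part from the selection. The test of the difference itself, the interaction of vector and transduction, called 26 genes higher and 59 lower (0.123% and 0.278%; 1648 genes, 7.77%, at an unadjusted p under 0.05), among them 35 of the 127 and 8 of the 36. The interaction uses the same Kir2.1 libraries, so it is not independent of those calls.

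Mir670hg had the smallest p in the interaction (log2 fold change -3.36 ± 0.33 SE, adjusted p = 1.31e-09; 114 ± 33.5 CPM in mutant-transduced and 87.9 ± 32.6 in mutant non-transduced nuclei). Npy had a positive difference with the mutant (1.37, adjusted p = 0.438) and an interaction of -4.02 ± 0.56 (adjusted p = 3.06e-05). The other 4 of the 6 genes with the smallest interaction p were Mlip (-1.92, adjusted p = 0.000176), Pde10a (-1.96, 0.0007), Cnmd (-4.04, 0.000868) and Egfr (-1.40, 0.000941). The interaction also passed for Dlx6os1 (-1.63, adjusted p = 0.000941), Penk (-2.39, 0.00151), Nr4a1 (-3.04, 0.00151), Vgf (-3.57, 0.00356), Pcsk1 (-1.38, 0.0105) and Vip (-1.66, 0.0432), and among rises for Fbln2 (1.36, 0.000992), Kcnc1 (1.44, 0.00151), Fdps (1.73, 0.0166) and Msmo1 (1.59, 0.0262). It did not pass for Fos (-4.70, 0.0537), Npas4 (-5.68, 0.0628), Camk2a (0.64, 0.0545), Adarb2 (-0.73, 0.188) or H2-K1 (-0.12, 1). Among the rises, Kcnc1 (-0.44, edgeR adjusted p = 0.713) and Fbln2 (-0.37, 0.836) stood below 0 with the mutant and did not pass. The interactions of Kcnc1 and Fbln2 thus hold a mutant difference of opposite sign besides the Kir2.1 rise. For Fdps and Msmo1 too the interaction exceeded the Kir2.1 difference given above, so it likewise holds a mutant difference below 0. Of the falls, some stood above 0 with the mutant, such as Mlip (0.43, edgeR adjusted p = 0.924). Others stood below 0, such as Cnmd (-0.31), and neither Mlip nor Cnmd passed there. The sterol list had a median of -0.50 with the mutant, and none of its members passed there. Without the 17 libraries that went against their sex label, 3 genes passed the interaction, Mir670hg, Pde10a and Npy.

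**Figure D5:**
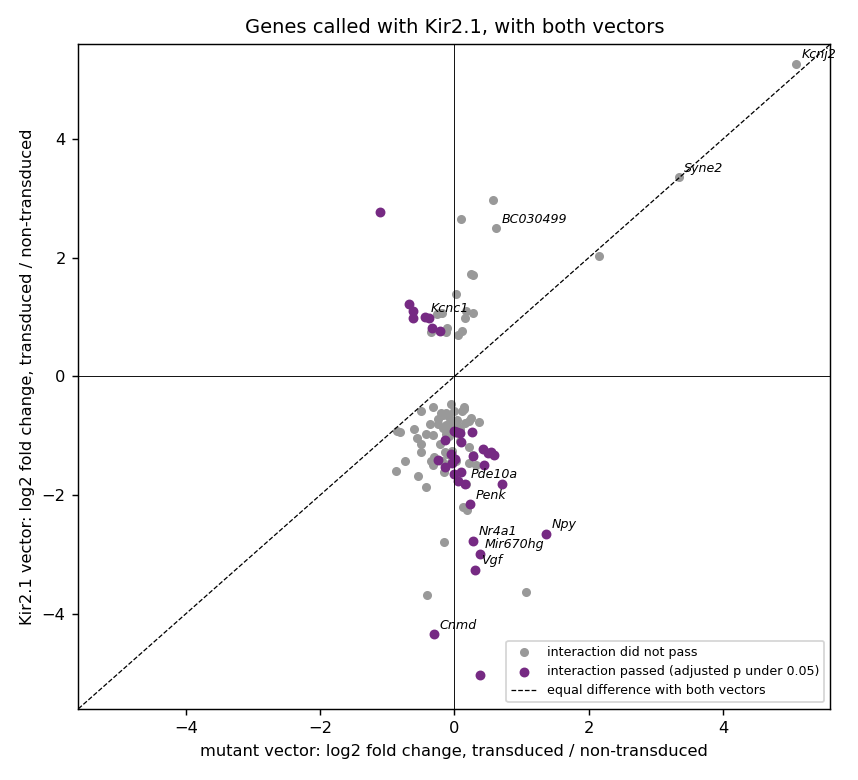
Log2 fold changes, transduced over non-transduced, with the mutant vector (x axis) and with Kir2.1 (y axis) for the 127 genes called with Kir2.1 that had a mean of 5 CPM or more in a Kir2.1 group. Kcnj2 and Syne2 lie on the dashed line of equal differences, most other points lie near 0 on the x axis, and purple points passed the interaction.

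Kir2.1-transduced nuclei were also set against mutant-transduced nuclei, a comparison that shares the Kir2.1-transduced libraries. There 75 genes were higher and 219 lower (0.354% and 1.03%), and 16 of the 36 rises and 90 of the 127 falls were called in the same direction. Nr4a1 had -2.86 in that comparison and -2.77 against non-transduced nuclei, Pcsk1 -1.40 and -1.52, Vip -1.57 and -1.23, Fdps 1.92 and 1.11, and Camk2a 0.89 and 0.69. Crh passed in that comparison (-2.59, adjusted p = 0.000104). Crh averaged 23.2 ± 17.7 CPM in Kir2.1-transduced, 59.1 ± 37.0 in Kir2.1 non-transduced, 140.1 ± 89.7 in mutant-transduced and 88.3 ± 71.4 in mutant non-transduced nuclei. Between the non-transduced nuclei of the 2 vectors 0 genes passed (0% of 21207; 1843, 8.69%, at an unadjusted p under 0.05, edgeR).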

How the data were processed

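Nuclei of the mouse visual cortex were sorted and their polyadenylated RNA was amplified by 17 cycles of PCR and made into libraries with Nextera XT, per the labels' protocols; this kit does not mark strand. The authors deposited 1 table of whole-number read counts per gene, with no normalization. Named in the submitters' processing notes are STAR 2.5.3a, HOMER 4.9.1, cutadapt 1.18 and the build mm10; settings and annotation of the counting are not given in the sources used here. Identifiers were matched to GENCODE vM21 (55154 of 55335).

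One fit of the 41 VIP libraries was made with edgeR 4.0.16 in R 4.3.3 (quasi-likelihood F test, TMM scaling, filterByExpr at its defaults, a count of 10 and a total of 15). P-values were two-sided and adjusted by Benjamini-Hochberg over the 21207 genes tested, with a threshold of 0.05. A fold change is that of the fitted counts, its SE is its size over the square root of F, and CPM values are counts scaled to TMM-adjusted library size. The script was tested on simulated data. Counts carry no molecular identifiers, so intervals and floors (3 counts) cover counting error only.

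Comparison members and gene lists were chosen with earlier results of these data known. Named were Kcnj2 and Syne2, the 12 genes of smallest p in each direction among those called with at least a 2-fold difference, up to 4 called members of each list, 19 genes whatever their values, and the 6 genes of smallest interaction p; list members given as not passing were chosen with their values in view, and any other called gene is said to be singled out. Alternatives changed the libraries, covariates, scaling, filter or tool (DESeq2 1.42.0).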

Additional observations from a re-analysis of the deposited data

Results flagged for a closer look

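A library far from the others of its group was found in 12 of 116 gene and group sets screened, by Dixon's test at its 95% critical value. Each was of a different gene that the text names. Chance flags about 1 in 20 sets where values are normally distributed, but CPM values were screened untransformed, so that rate need not hold here. Where all other libraries are at 0, as for Npas4, any library with counts is flagged. In Kir2.1-transduced nuclei, library 4 was high for Fbln2 (341.7 CPM, against 258.2 in the next library) and Trpc6 (70.91 against 43.4), library 5 for Pnoc (79.4 against 35.7), library 6 for Gabrb2 (434.2 against 264.1), library 3 for Fos (6.554 against 1.53) and library 2 for Npas4 (0.2549 CPM, the others at 0). In non-transduced nuclei, library 4 was high for Mir670hg (146.2 against 109.2) and Dlx6os1 (1080.0 against 598), library 3 for Plk5 (20.46 against 9.298) and Pik3ip1 (103.0 against 57.8), library 9 for Gpc3 (76.3 against 46.3) and library 7 for Ly6c1 (46.87 against 1.99).

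For 6 genes the difference between transduced and non-transduced VIP nuclei was set apart between Kir2.1 and its mutant by the interaction term. The interaction, Kir2.1 minus mutant on the log2 scale, was -3.3629 for Mir670hg, -4.0422 for Cnmd, -1.3991 for Egfr, -1.9619 for Pde10a, -1.9247 for Mlip and -4.0172 for Npy. Without the libraries whose counts went against their sex label it was -3.62 for Mir670hg, -2.25 for Pde10a and -4.05 for Npy, which still passed.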

How the results depend on the processing

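Against 163 genes called with Kir2.1, a fit of the 20 libraries alone called 105, leaving out library 8 of both groups 103, leaving out the libraries that go against their sex label (chosen after seeing the data) 76 and asking for at least 2-fold 108; leaving out 1 Kir2.1 library at a time gave 116 to 195. DESeq2 called 241, and the other scalings, filters and the sex covariate 142 to 169. The interaction (85) called 35 in a fit of its 38 libraries alone, 719 with no filter on low counts, 36 with a stricter one (1 CPM in 10 libraries), 43 without library 8 and 3 without the libraries against their sex label, and 57 to 112 leaving out 1 library. The mutant contrast (2) called 5 with a replicate block and 1, Kcnj2, without the libraries against their sex label. Bdnf, which did not pass, changed sign without library 8 (-0.11) and without transduced library 7 (-0.32; up to 0.97 without another library). The causes were not tested. The main fit did not pair libraries by number. Deviations of same-numbered Kir2.1 libraries from the group means correlated by 0.01 to 0.12, over 0.1 in 1 of 10 pairs. Their median was 0.058, against -0.008 between libraries of different number. Best matches were with the own number for 6 of 10 transduced and 6 of 10 non-transduced libraries. Xist and Y-linked counts were alike in 10 of 10 pairs. Whether a number stands for 1 animal was not tested. With the replicate block 224 genes were called with Kir2.1 (53 higher, 171 lower; 125 of the 163) and 75 in the interaction; among named genes Crh was then called (adjusted p = 0.0157) and Gm17163 (0.317) and Ly6c1 (0.442) were not. Without library 8 of both groups 11 named genes lost their call (Fos, Fdps, Msmo1, Scd2, H2-K1, Kcnc2, Pik3ip1, Fgf13, Gpc3, Gabrb2 and Hras; adjusted p from 0.0539 to 0.144), and without the libraries against their sex label 18 did (0.0611 to 0.527), Fgf13 and Gabrb2 among them. In the fit without the libraries against their sex label, 0 of 57 named genes changed sign. Of 53 named genes called, 44 passed in all 20 fits that left out 1 Kir2.1 library. Libraries of 50 to 100 nuclei limit low genes such as Npas4.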

Other observations

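Igkc, which encodes the kappa chain of immunoglobulins and is known as a product of B cells and plasma cells, was present in VIP libraries of injected cortex and nearly absent without AAV. It ran from 1.97 to 133 CPM (median 51.6) in Kir2.1-transduced and from 9.17 to 533 CPM (median 35.9) in Kir2.1 non-transduced nuclei, from 10.5 to 98.5 CPM with the mutant in transduced and from 8.34 to 69.1 CPM in non-transduced nuclei. The 3 libraries without AAV, all labelled male, had 5 counts in all. Igkc and Gm30211, whose levels were close to those of Igkc, were the 2 genes higher in Kir2.1 non-transduced than in naive nuclei (log2 fold change 8.34 ± 1.40 SE and 7.75 ± 1.34 SE, adjusted p = 0.00485 and 0.00493). Neither passed between Kir2.1-transduced and non-transduced nuclei (-0.83, adjusted p = 0.722 and 0.73). These genes were singled out after their values were seen.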
